A study of Mus musculus with 16 samples.

Results

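The genes described here encode the enzymes that remove superoxide and peroxides: the superoxide dismutases Sod1, Sod2 and Sod3, catalase (Cat), the glutathione peroxidases Gpx1, Gpx2, Gpx3 and Gpx4, and the peroxiredoxins Prdx1 and Prdx6. They were followed in the left lung of mice, with 1 Affymetrix array per mouse. The sample titles call the material whole lung RNA. All probe sets whose annotation led to 1 of the 10 named genes were taken, which gave 19 of the 22626 probe sets that are not array controls. Of these, 14 were annotated to 1 gene only and covered 8 genes: Sod2 had 3, Sod1, Sod3, Cat and Gpx4 had 2 each, and Gpx1, Gpx2 and Gpx3 had 1 each. The other 5 were annotated to Prdx1 together with Gm21399, a Prdx1-like pseudogene, and signal from the pair cannot be told apart, so they are given as Prdx1/Gm21399. Prdx6 had no probe set in the annotation used here.

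Wildtype C57BL/6 mice, and mice with a genetic deficiency of the fat cell hormone adiponectin, breathed room air or 0.3 ppm ozone for 72 h. Their average age was 14 weeks, and the deficient mice carried the same background strain label. The lungs were taken right after the exposure. Each of the 4 groups held 4 mice, 2 males (M1 and M2) and 2 females (F1 and F2). The labels name neither the allele nor a founder line of the deficient mice. For wildtype ozone F1 the description field disagrees with the rest of the labels: it gives room air, against ozone in the title, source and exposure. The mouse was kept in the ozone group.

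Superoxide dismutases turn superoxide into hydrogen peroxide: Sod1 in the cytosol with copper and zinc, Sod2 in mitochondria with manganese, and Sod3 outside the cell, where it is abundant around lung vessels and airways. Hydrogen peroxide is then split by catalase in peroxisomes, or reduced by glutathione peroxidases and peroxiredoxins at the expense of glutathione and thioredoxin. Ozone reacts with the fluid lining the airways and with cell membranes and produces lipid peroxides and hydrogen peroxide, the substrates of these enzymes.

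After ozone, the main probe sets of Sod1 and Gpx1 rose in both genotypes, by 1.37-fold and 1.27-fold in wildtype lungs. Gpx2, the glutathione peroxidase of epithelia, rose by 1.52-fold in wildtype lungs. In deficient lungs its change of 1.19-fold did not pass with all arrays, but it passed without deficient air M2. By their main sets, Sod2 and Sod3 rose in deficient lungs, by 1.22-fold and 1.27-fold, and Cat fell there by 1.32-fold. The other Sod3 probe set rose there too, whereas the other Sod2 probe sets did not pass. The other Cat probe set fell in both genotypes, by 1.53-fold and 1.52-fold, whereas the other Sod1 probe set fell where the main set rose. In deficient lungs, the calls by main sets held under 30 of 33 alternative settings for Sod2 and 28 for Sod3. They held under 19 for Sod1, 16 for Gpx1 and 14 for Cat. Some of these settings leave out single arrays. None of the 8 genes passed the test between genotypes, and no difference between the ozone responses of the genotypes passed the test.

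Precision is limited by the 4 arrays in each group. Values are log2 intensities, a change is ozone minus air (or deficient minus wildtype) on the log2 scale with its standard error, and calls were made at an adjusted p under 0.05 (limma, Benjamini-Hochberg over 12393 genes). Where a gene had several probe sets, the one that was brightest on average over the 16 arrays (its main set) stood for it. Median log2 intensities lay between 7.19 and 7.26 over the arrays. Lung markers were present on every array: Scgb1a1 of club cells was at 14.57 to 14.72 and Sftpc of alveolar type 2 cells at 14.51 to 14.62. Adipoq, the adiponectin gene, differed by -1.82 (deficient minus wildtype) in ozone, without overlap (two-sided exact permutation p = 0.0286, and no lower p is possible with 4 mice a side). In air the difference was -1.78 with overlap (exact permutation p = 0.143), since deficient air F2 was at 8.82.

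Markers of other tissues were found on 3 air arrays, called the other-tissue arrays here, and results were also computed without them. Deficient air M2 had the muscle actin Acta1 at 13.08 and the squamous keratin Krt4 at 13.03, where the other arrays had at most 6.19 and 6.35. Wildtype air F1 and deficient air F2 had the fat gene Cidec at 8.67 and 8.54 against 5.25 to 6.40 on the others. Wildtype ozone M2 had the neutrophil gene S100a8 at 13.68 against 9.44 to 9.60 in its group. In bulk lung RNA, fewer cells of a type and less RNA per cell cannot be told apart.

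Promoters of 4 members are shown because the results turn on these genes: Sod1, whose main probe set rose, Prdx1, of whose 5 sets shared with Gm21399 3 rose in wildtype lungs, Gpx2, with the largest rise of the 8 genes in wildtype lungs, and Cat, which fell. Each run is the 250 bases before the RefSeq start on GRCm38.p6, read 5′ to 3′ along the gene: Sod1 at chr16:90220512-90220761 on the plus strand, Prdx1 at chr4:116685349-116685598 on the plus strand, Gpx2 at chr12:76795555-76795804 on the minus strand and Cat at chr2:103485154-103485403 on the minus strand. Capitals mark matches on either strand to TGACNNNGC, the core of the antioxidant response element bound by NRF2, and to the AP-1 site TGAGTCA in Prdx1, and matches to CCAAT in Cat.
Sod1: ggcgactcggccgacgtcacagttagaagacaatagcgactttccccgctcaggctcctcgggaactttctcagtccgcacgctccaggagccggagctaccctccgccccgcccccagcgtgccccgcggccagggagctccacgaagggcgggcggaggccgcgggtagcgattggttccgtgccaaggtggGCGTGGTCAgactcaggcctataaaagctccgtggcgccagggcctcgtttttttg
Prdx1: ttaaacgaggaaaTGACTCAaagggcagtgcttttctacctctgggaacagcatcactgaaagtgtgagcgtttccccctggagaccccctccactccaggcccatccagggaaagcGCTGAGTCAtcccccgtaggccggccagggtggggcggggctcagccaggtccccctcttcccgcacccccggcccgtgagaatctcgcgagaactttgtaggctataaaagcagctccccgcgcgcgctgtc
Gpx2: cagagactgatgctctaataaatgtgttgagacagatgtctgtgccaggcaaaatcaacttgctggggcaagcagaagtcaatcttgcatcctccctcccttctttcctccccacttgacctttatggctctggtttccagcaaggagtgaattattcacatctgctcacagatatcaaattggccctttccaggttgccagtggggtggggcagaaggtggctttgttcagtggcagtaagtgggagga
Cat: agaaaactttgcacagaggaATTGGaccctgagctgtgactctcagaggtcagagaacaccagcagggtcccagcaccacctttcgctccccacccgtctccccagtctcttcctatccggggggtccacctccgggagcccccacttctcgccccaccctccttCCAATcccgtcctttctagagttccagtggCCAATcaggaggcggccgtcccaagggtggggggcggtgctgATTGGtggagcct
The 8 members with a RefSeq promoter entry had 11 windows, 4 of them for Gpx4. TGACNNNGC was found in 2 of the 11, Sod1 at 56 bases and Prdx1 at 133 bases before the start, and in 10.2% of all 32851 promoter windows of this length. TGAGTCA was found only in Prdx1, at 237 and 131 bases before the start, against 4.46% of windows, and the match at 131 overlaps the TGACNNNGC match. CCAAT was found in 8 of the 11, of which 3 belong to Gpx4, against 33.8% of windows. By gene, 6 of the 8 members had a match. The Gpx4 windows at chr10:80053315-80053564 and chr10:80053409-80053658 overlap and share CCAAT matches, so the windows are not all separate. CCAAT stood 4 times in the Cat window. The windows of Sod2, Cat, Gpx1, Gpx2, Gpx3 and Gpx4 held no match to TGACNNNGC, which says only that these letters are not in those bases.

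In wildtype lungs, 3 of the 8 genes rose after ozone (Sod1, Gpx1 and Gpx2), none fell and 5 did not pass. Of all genes tested, 36.7% were called either way in this comparison, 19.6% higher and 17.1% lower. The share of 3 in 8 is near that background. The median change of the 8 genes was 0.11, against 0.032 over all genes. In deficient lungs 4 of the 8 rose (Sod1, Sod2, Sod3 and Gpx1), 1 fell (Cat) and 3 did not pass, against 30.3% of all genes called either way, 15.8% higher and 14.6% lower. Their median change was 0.25, against 0.012 over all genes. The count in deficient lungs was the less steady one, at 3 without the 3 other-tissue arrays. Those 3 were Sod2, Gpx1 and Gpx2. Gpx2 was not called with all arrays, while Sod1, Sod3 and Cat lost their calls. With ozone averaged over both genotypes, a contrast chosen after seeing the data, 5 of the 8 were called (Sod1, Sod2, Gpx1 and Gpx2 higher, Cat lower), against 48.7% of all genes, 26% higher and 22.7% lower. Ozone and air arrays did not overlap for 1 of the 8 genes in wildtype lungs (31.4% of all genes) and for 3 of the 8 in deficient lungs (28.7%).

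**Figure D1:**
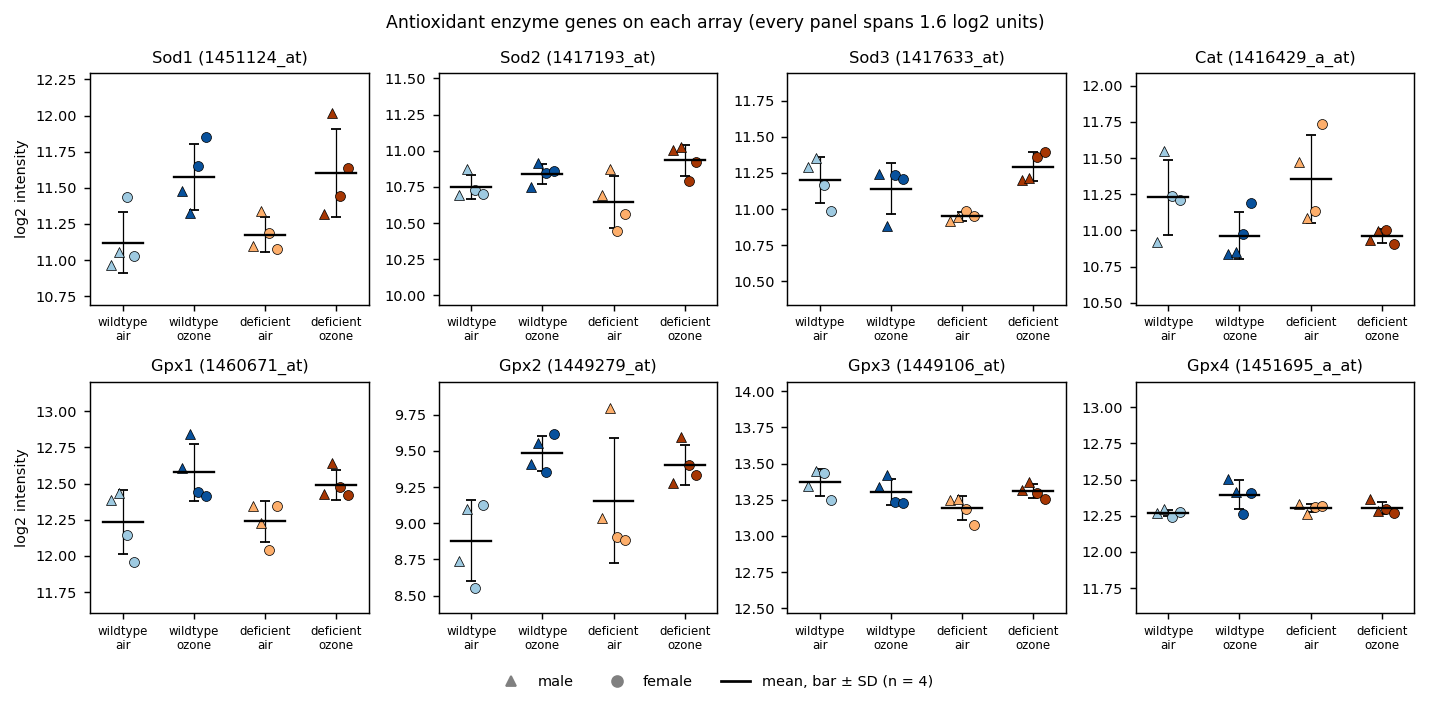
Log2 intensity (vertical axis) of the 8 genes on each of the 16 arrays, by group, with triangles for males, circles for females, lines for group means and bars for ± SD (n = 4). Gpx2 lies at 9.36 to 9.61 on the 4 wildtype ozone arrays and at 8.55 to 9.12 on the 4 wildtype air arrays, and deficient air M2 stands alone at 9.80.

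The cytosolic Sod1 (gene ID 20655, chr16:90220762-90226333, GRCm38.p6) gave opposite answers from its 2 probe sets. The main set, 1451124_at, read 10.97, 11.05, 11.44 and 11.03 in wildtype air and 11.48, 11.33, 11.65 and 11.85 in wildtype ozone (M1, M2, F1 and F2, the order used throughout). In deficient mice it read 11.10, 11.34, 11.19 and 11.08 in air and 11.32, 12.02, 11.44 and 11.64 in ozone. Most ozone arrays were above the air arrays, but the groups overlapped in both genotypes, through wildtype air F1 at 11.44 and through deficient air M2 at 11.34. The change was 0.45 ± 0.15 in wildtype lungs (limma, adjusted p = 0.0239) and 0.43 ± 0.15 in deficient lungs (adjusted p = 0.0363). In wildtype lungs the change no longer passed without air M1 (0.41, adjusted p = 0.0664), air M2 (0.45, 0.0540), air F2 (0.40, 0.0674), ozone F1 (0.44, 0.0517) or ozone F2 (0.37, 0.0771). In deficient lungs it no longer passed without air M1 (0.41, adjusted p = 0.0807), air F1 (0.42, 0.0751), air F2 (0.37, 0.10), ozone F2 (0.43, 0.0719) or ozone M2, the highest array (0.26, 0.120).

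The other Sod1 set, 1435304_at, read 7.25, 7.18, 7.32 and 7.32 in wildtype air and 6.84, 6.55, 6.90 and 6.59 in wildtype ozone. In deficient lungs it read 7.27, 6.96, 7.78 and 7.37 in air and 6.78, 7.03, 6.93 and 7.01 in ozone. All wildtype ozone arrays were below all wildtype air arrays, while deficient air M2 lay within the deficient ozone values. The change was -0.55 ± 0.12 in wildtype lungs (limma over 20380 probe sets, adjusted p = 0.00228) and -0.41 ± 0.12 in deficient lungs (adjusted p = 0.0166). Without deficient air F1, its highest array, the deficient change was -0.28 (adjusted p = 0.0561). Over the 16 arrays both Sod1 sets correlated at r = -0.53, which includes the shift between air and ozone. Averaging both sets left a wildtype change of -0.049 (adjusted p = 0.726), so a rise of Sod1 holds for the main set alone. Which transcripts 1435304_at detects was not tested.

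**Figure D2:**
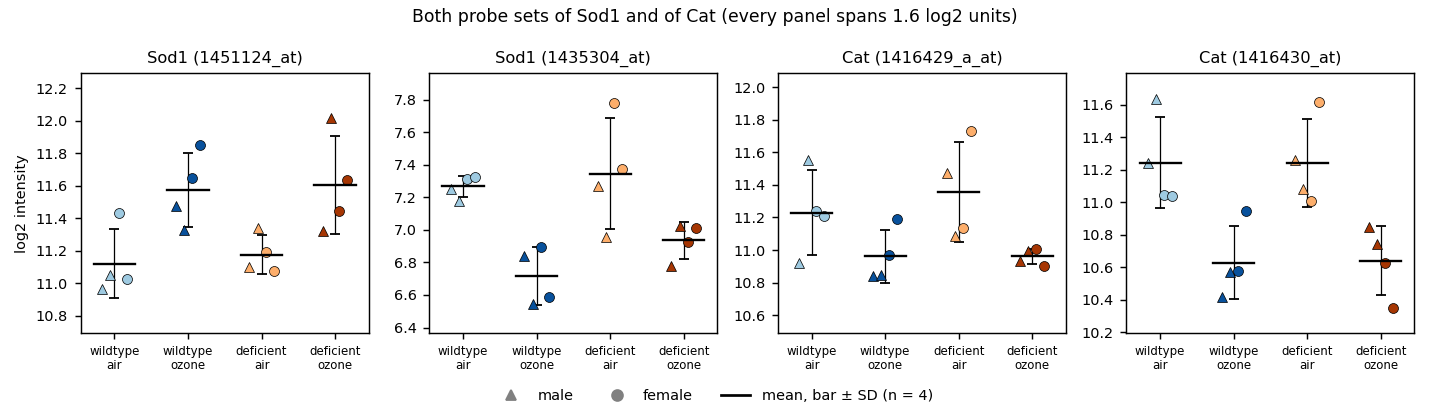
Log2 intensity (vertical axis) on each array for the probe sets of Sod1 and of Cat, by group, with lines for means and bars for ± SD (n = 4). The Sod1 sets move apart after ozone, by 0.45 and -0.55 in wildtype lungs, and the Cat sets both move down.

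The mitochondrial Sod2 (gene ID 20656, chr17:13007839-13018119) rose in deficient lungs only by its main set, 1417193_at. That set read, in deficient mice, 10.69, 10.87, 10.45 and 10.57 in air and 11.01, 11.02, 10.79 and 10.92 in ozone. In wildtype lungs it read 10.70, 10.87, 10.73 and 10.70 in air and 10.75, 10.91, 10.84 and 10.86 in ozone. Each deficient ozone array was above 3 of the 4 deficient air arrays, and deficient air M2 at 10.87 was above the lowest ozone value. The change was 0.29 ± 0.073 in deficient lungs (adjusted p = 0.00705) and 0.093 ± 0.073 in wildtype lungs (adjusted p = 0.340). The difference between those changes was 0.20 ± 0.10 (interaction, adjusted p = 0.983), so a response particular to deficient lungs was not shown. The other Sod2 sets did not pass in either genotype. In deficient lungs 1448610_a_at, with a mean level of 10.75 against 10.79 for the main set, changed by 0.024. The dim set 1417194_at, with a mean level of 5.54, changed there by -0.011. Averaging all Sod2 sets left a deficient change of 0.10 (limma, adjusted p = 0.199). Over the 16 arrays the main set correlated at r = 0.23 with 1448610_a_at and at r = 0.05 with 1417194_at.

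The extracellular Sod3 (gene ID 20657, chr5:52363804-52369738) rose in deficient lungs by both of its probe sets. Its main set, 1417633_at, read, in deficient mice, 10.92, 10.95, 10.99 and 10.95 in air and 11.20, 11.22, 11.36 and 11.40 in ozone, without overlap. In wildtype lungs it read 11.29, 11.35, 11.17 and 10.99 in air and 11.24, 10.88, 11.24 and 11.21 in ozone. The deficient change was 0.34 ± 0.091 (adjusted p = 0.0101), and it was 0.34 with an adjusted p of 0.0591 without the 3 other-tissue arrays. The wildtype change was -0.058 ± 0.091 (adjusted p = 0.646), with M2 at 10.88 below the other 3 ozone arrays. The other set, 1417634_at, read 10.45, 10.20, 9.94 and 9.67 in wildtype air and 10.07, 9.63, 9.96 and 9.62 in wildtype ozone, a change of -0.25 ± 0.13 (adjusted p = 0.152). In deficient mice it read 9.73, 9.70, 9.75 and 9.73 in air and 9.997, 10.18, 10.11 and 10.25 in ozone, a change of 0.41 ± 0.13 (adjusted p = 0.0285). The deficient groups of this set did not overlap either, and the sets correlated at r = 0.82. Its deficient call was lost without air M1 (adjusted p = 0.0703), air M2 (0.0637), ozone M2 (0.0548), ozone F1 (0.0621) or ozone F2 (0.0967), and its wildtype change was called without wildtype air F2 (-0.37, 0.0325).

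Catalase (Cat, gene ID 12359, chr2:103453904-103485153) fell after ozone in both genotypes by 1416430_at and in deficient lungs by its main set. The set 1416430_at read 11.24, 11.64, 11.05 and 11.04 in wildtype air and 10.41, 10.57, 10.58 and 10.94 in wildtype ozone. In deficient lungs it read 11.26, 11.08, 11.01 and 11.62 in air and 10.85, 10.74, 10.62 and 10.35 in ozone. Every ozone array was below every air array of both genotypes. The changes were -0.61 ± 0.16 (adjusted p = 0.00751) in wildtype and -0.60 ± 0.16 (adjusted p = 0.0101) in deficient lungs. Without the 3 other-tissue arrays the deficient change was -0.49 (adjusted p = 0.0544).

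The main Cat set, 1416429_a_at, read 10.92, 11.55, 11.24 and 11.21 in wildtype air and 10.84, 10.85, 10.97 and 11.19 in wildtype ozone, with overlap. In deficient mice it read 11.47, 11.08, 11.13 and 11.73 in air and 10.93, 10.996, 11.01 and 10.90 in ozone, without overlap. The changes were -0.27 ± 0.14 (adjusted p = 0.149) and -0.40 ± 0.14 (adjusted p = 0.0435). The highest value was on deficient air F2, 1 of the 2 arrays with fat genes, and without it the deficient change was -0.28 (adjusted p = 0.150). The call was also lost without wildtype air F1 or F2, wildtype ozone M1 or F1, deficient air M1, or any 1 of the 4 deficient ozone arrays, with adjusted p from 0.0516 to 0.124. Of the fat markers, Cidec changed by -1.21 and -1.29 after ozone (adjusted p = 0.0890 and 0.0819). The summed level of the 5 measured fat markers ran from 8.73 to 12.39 in wildtype air, 9.08 to 9.77 in wildtype ozone, 8.69 to 11.54 in deficient air and 8.39 to 8.58 in deficient ozone. The part of fat RNA in the Cat values was not tested beyond leaving out those arrays. The 2 Cat sets correlated at r = 0.85.

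Gpx1 (gene ID 14775, chr9:108339080-108340342), the cytosolic glutathione peroxidase, rose in both genotypes. Its set, 1460671_at, read 12.39, 12.44, 12.14 and 11.96 in wildtype air and 12.61, 12.84, 12.44 and 12.42 in wildtype ozone. In deficient mice it read 12.34, 12.23, 12.04 and 12.34 in air and 12.43, 12.64, 12.48 and 12.42 in ozone. The wildtype groups touched, with air M2 at 12.44 above ozone F2, and the deficient groups were apart. The changes were 0.35 ± 0.088 (adjusted p = 0.00684) and 0.25 ± 0.088 (adjusted p = 0.0418), and 0.30 ± 0.062 averaged over genotypes (adjusted p = 0.00107). The averaged change was called under 31 of 32 alternative settings, all but the one that also asks for a 1.5-fold change. The deficient change was called under 16 of 33. It no longer passed without wildtype F1 in air (adjusted p = 0.0501), wildtype ozone F1 (0.0522), deficient air M1, M2 or F1 (0.0823, 0.113 and 0.114) or deficient ozone M2, F1 or F2 (0.0960, 0.114 and 0.0973).

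Gpx2 (gene ID 14776, chr12:76792335-76795554), best known from gut and airway epithelium, had the largest rise of the 8 genes in wildtype lungs. Its set, 1449279_at, read 8.74, 9.10, 8.55 and 9.12 in wildtype air and 9.41, 9.55, 9.36 and 9.61 in wildtype ozone, without overlap. The wildtype change was 0.60 ± 0.17 (adjusted p = 0.0114). In deficient lungs it read 9.04, 9.80, 8.91 and 8.89 in air and 9.28, 9.59, 9.41 and 9.33 in ozone, and the change was 0.25 ± 0.17 (adjusted p = 0.298). The 3 other deficient air arrays were below all ozone arrays, while M2, the array with muscle and squamous genes, was above them. Without M2 the deficient change was 0.45 (adjusted p = 0.0141), and without all 3 other-tissue arrays it was 0.43 (adjusted p = 0.0227). The 3 squamous markers summed to 13.36 on that array and to 7.31 to 7.85 over the other groups, and their part in its Gpx2 value was not tested beyond leaving the array out.

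Gpx3 (gene ID 14778, chr11:54902854-54910387), the secreted plasma enzyme, and Gpx4 (gene ID 625249, chr10:80047166-80056439), which reduces lipid peroxides in membranes, stayed within narrow ranges. Gpx3 read 13.25 to 13.45 in wildtype air, 13.23 to 13.42 in wildtype ozone, 13.08 to 13.26 in deficient air and 13.26 to 13.37 in deficient ozone. Its changes were -0.064 ± 0.055 (adjusted p = 0.386) and 0.12 ± 0.055 (adjusted p = 0.125). Deficient air had the lowest mean, 13.19, and met deficient ozone at 13.26. Gpx4 by 1451695_a_at read 12.27, 12.29, 12.24 and 12.27 in wildtype air and 12.51, 12.41, 12.26 and 12.41 in wildtype ozone. Its wildtype change was 0.13 ± 0.053 (adjusted p = 0.0733), called when each array was shifted to a common median (0.16, adjusted p = 0.0261) or without wildtype ozone F1 (0.17, adjusted p = 0.0248). In deficient lungs it read 12.26 to 12.33 in air and 12.27 to 12.37 in ozone, a change of 0.00012 ± 0.053 with a 95% interval of -0.11 to 0.11. The other Gpx4 set changed by 0.10 and 0.028 and passed in neither genotype.

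The cytosolic peroxiredoxin Prdx1 (gene ID 18477, chr4:116685599-116700000), which hands peroxide to thioredoxin, could be read only together with Gm21399. Of the 5 shared sets, 3 rose in wildtype lungs and 2 in deficient lungs, and none fell. Of all 21071 annotated probe sets, 37% (18.4% higher and 18.6% lower) were called either way in wildtype lungs and 30.2% (14.9% and 15.3%) in deficient lungs. The set 1416000_a_at read 12.19, 12.18, 12.07 and 12.24 in wildtype air and 12.50, 12.43, 12.40 and 12.37 in wildtype ozone. In deficient lungs it read 12.22, 12.19, 12.16 and 12.34 in air and 12.46, 12.45, 12.35 and 12.34 in ozone. Ozone and air arrays did not overlap in either genotype, though deficient air F2 and deficient ozone F2 both rounded to 12.34. Its changes were 0.25 ± 0.058 (limma over all annotated probe sets, adjusted p = 0.00352) and 0.18 ± 0.058 (adjusted p = 0.0323). The deficient call was lost without deficient air M1, M2 or F1 or deficient ozone M1 or M2, with adjusted p from 0.0788 to 0.0884.

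The Prdx1/Gm21399 set 1434731_x_at changed by 0.46 ± 0.10 (adjusted p = 0.00253) and 0.32 ± 0.10 (adjusted p = 0.0244). Its values ran from 12.06 to 12.35 in wildtype air, 12.51 to 12.74 in wildtype ozone, 12.14 to 12.63 in deficient air and 12.63 to 12.73 in deficient ozone. Its deficient call was lost without deficient air M2 or F1 (adjusted p = 0.0758 and 0.0886) or deficient ozone M2 or F2 (0.0546 and 0.0678). The set 1436691_x_at changed by 0.14 ± 0.049 (adjusted p = 0.0391) in wildtype lungs and by 0.091 ± 0.049 (adjusted p = 0.180) in deficient lungs, each without overlap. Its wildtype call was lost without any 1 of the 4 wildtype ozone arrays, wildtype air M2, F1 or F2, or deficient air M2, with adjusted p from 0.0507 to 0.0853. The sets 1433866_x_at and 1437014_x_at stood at 0.44 ± 0.19 and 0.28 ± 0.14 in wildtype lungs (adjusted p = 0.0778 and 0.124). Both were spread in deficient air, where M1 and F2 stood at 11.72 and 11.81 for the first set and M2 and F1 at 11.06 and 10.94. The 5 sets overlap in what they measure and are not replicates. No difference between the ozone changes of the genotypes passed the test, with estimates from -0.17 to -0.046.

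**Figure D3:**
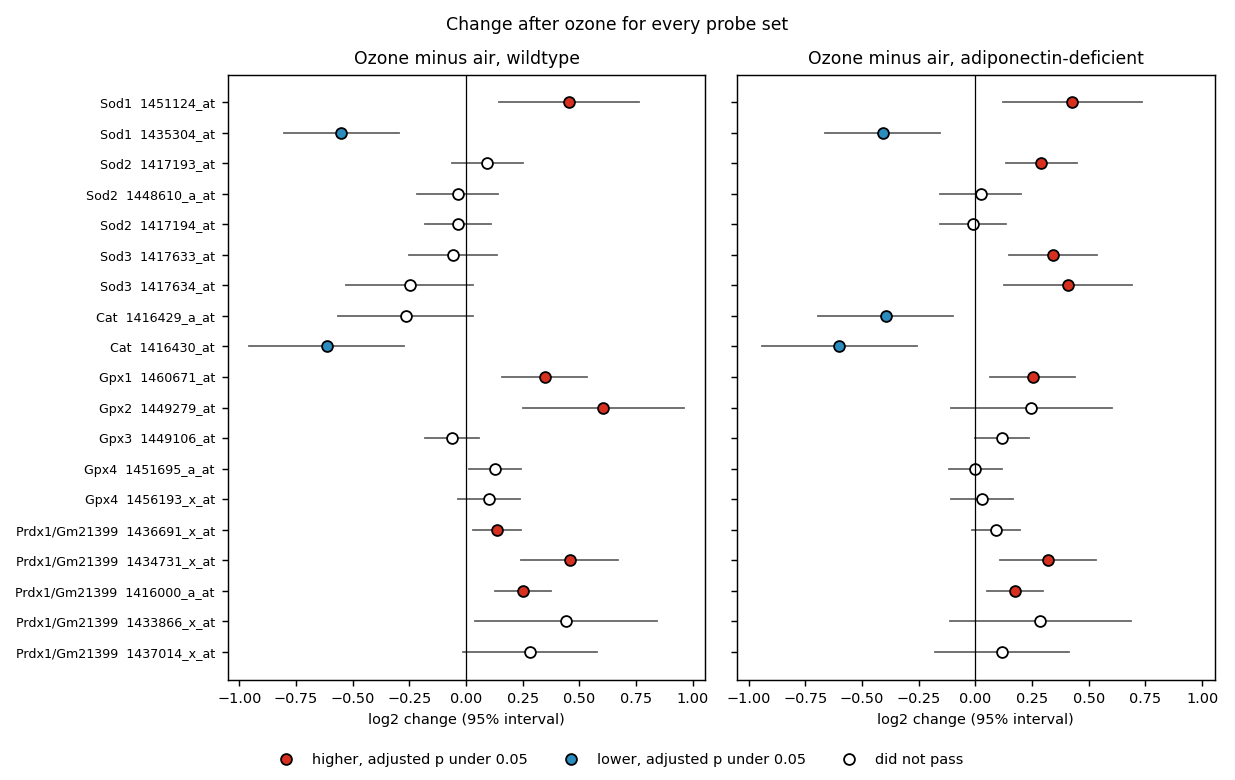
Log2 change after ozone (horizontal axis, with 95% intervals) for each of the 19 probe sets, in wildtype lungs on the left and deficient lungs on the right, filled where the adjusted p was under 0.05. The Cat sets and 1435304_at of Sod1 lie below 0 in both panels, and the 5 Prdx1/Gm21399 sets lie above 0.

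Over the 14 probe sets with 1 gene, 3 rose and 2 fell in wildtype lungs and 5 rose and 3 fell in deficient lungs, against 37.2% and 30.3% of all such probe sets called. Of those, 18.3% rose and 18.9% fell in wildtype lungs, and 14.8% rose and 15.5% fell in deficient lungs, as shares of all such sets. The median change of the 14 was -0.037 and 0.072. The extra sets of Cat and Sod1 are those that fell in wildtype lungs.

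Adiponectin deficiency moved none of the 8 genes past the threshold. In air, 0 of 8 were called by limma and 2 had an unadjusted p under 0.05, against 0.00807% of all genes called. These were Sod3, with a difference (deficient minus wildtype) of -0.25 ± 0.091 (unadjusted p = 0.0152, adjusted p = 0.817), and Gpx3, with -0.18 ± 0.055 (unadjusted p = 0.00606, adjusted p = 0.753). The Sod3 groups met without overlapping: wildtype air F2 at 10.99 was the lowest wildtype value and deficient air F1 at 10.99 the highest deficient one. In all, 2.44% of genes had groups that did not overlap in that comparison. In ozone, 0 of 8 were called and 0 had an unadjusted p under 0.05, against 0.0161% of genes called. Averaged over exposures, a contrast chosen after seeing the data, 0 of 8 were called and 1 (Gpx3, -0.085, unadjusted p = 0.0445) had an unadjusted p under 0.05, against 0.0888% called.

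No ozone response of the 8 genes differed between genotypes after adjustment, and 0% of all genes did. The largest difference was that of Sod3, at 0.40 ± 0.13 by its main set (interaction, unadjusted p = 0.00715, adjusted p = 0.983) and 0.66 ± 0.19 by 1417634_at (unadjusted p = 0.00305, adjusted p = 0.971 over all probe sets). The Gpx3 difference, the other one with an unadjusted p under 0.05, was 0.18 ± 0.078 (unadjusted p = 0.0346, adjusted p = 0.983). The Gpx2 difference was larger than that of Gpx3 in size, at -0.36, with a 95% interval of -0.86 to 0.15, with deficient air M2 included. For Sod1 the interval of the difference ran from -0.46 to 0.41, for Cat from -0.55 to 0.29 and for Gpx1 from -0.36 to 0.17. Differences of the size of the ozone changes themselves lie within those intervals, so equal responses were not shown either.

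**Figure D4:**
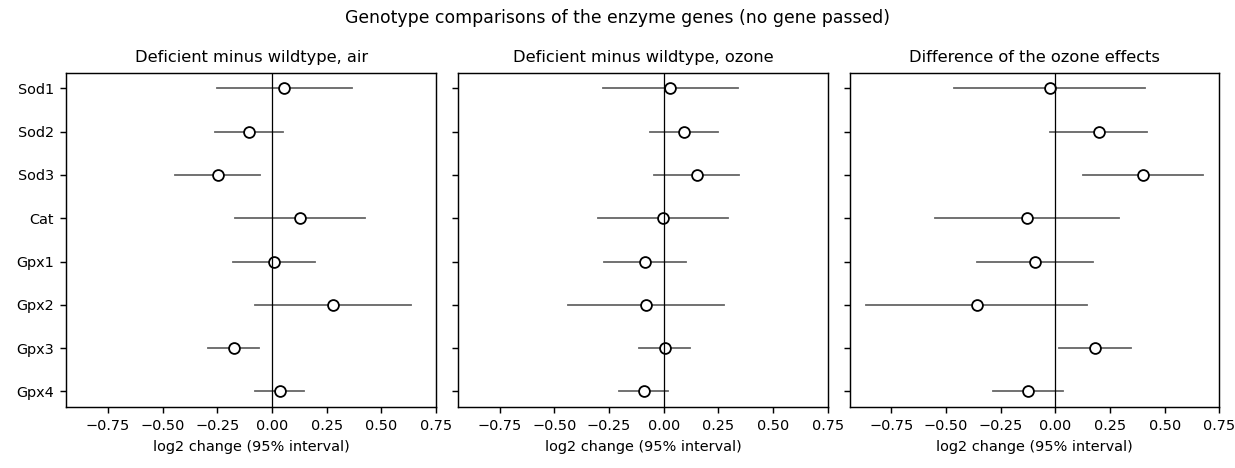
Log2 difference (horizontal axis, with 95% intervals) for the 8 genes: deficient minus wildtype in air, in ozone, and the difference between the ozone changes of the genotypes. All points are open because no gene passed at an adjusted p of 0.05. Sod3 lies at -0.25 in air and 0.40 in the third panel.

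Sex was a term of the model. Averaged over groups, Gpx1 was higher in males than in females, 12.49 ± 0.20 against 12.28 ± 0.20 (SD, n = 8 each), a difference of 0.21 ± 0.062 that missed the threshold over genes (adjusted p = 0.0620). It was called over all probe sets with 1 gene (adjusted p = 0.0477), of which 9.31% were called. By limma 0 of 8 genes were called, 3 had an unadjusted p under 0.05 (Gpx1, Gpx3 and Sod2, each higher in males), and 5.66% of all genes were called. Cell type markers differed by sex too. The erythroid Alas2 (1.31) and the macrophage markers Mrc1 and Cd68 (0.45 and 0.68) were higher in males, and the smooth muscle markers Acta2 and Tagln (-0.50 and -0.40, males minus females) were lower. The 4 neutrophil markers had a median difference of 0.66 and none was called. The part of these cells in the Gpx1 difference was not tested. The ozone response differed by sex for 0 of 8 genes, with 1 at an unadjusted p under 0.05: the Sod3 change in males minus that in females was -0.27 ± 0.10 (unadjusted p = 0.0255, adjusted p = 0.530). Of all genes, 0.00807% were called in that comparison.

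The companion lists are described by their counts, to be read against the 36.7% and 30.3% of all genes called in wildtype and deficient lungs and the medians of 0.032 and 0.012 over all genes. Several lists lie near or below those shares, among them the sources of superoxide and the peroxisome genes in wildtype lungs. Of 7 measured other peroxiredoxins and glutathione peroxidases, 4 rose in wildtype and 3 in deficient lungs, and none fell, with medians of 0.19 and 0.082. Prdx4, the peroxiredoxin of the endoplasmic reticulum, rose by 0.56 ± 0.090 and 0.64 ± 0.090 (adjusted p = 0.000290 and 0.000114). Gpx7, of the same compartment, rose by 0.27 and 0.44, and the mitochondrial Prdx3 by 0.25 and 0.18. The cytosolic Prdx2 rose by 0.19 in wildtype lungs and stood at 0.082 in deficient lungs (adjusted p = 0.312).

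Of 9 genes of the thioredoxin system, 5 rose and 2 fell in wildtype lungs, and 5 rose and 3 fell in deficient lungs, with medians of 0.21 and 0.24. Txnrd1, which reduces cytosolic thioredoxin, rose by 0.46 ± 0.081 and 0.45 ± 0.081, and the disulfide isomerase Txndc5 by 0.41 and 0.55. Txnip, the inhibitor of thioredoxin, changed by -0.32 and -0.31, and Txnrd3 changed by -0.65 and -0.54. Of 9 genes that supply glutathione or reduce its mixed disulfides, 4 rose in each genotype and none fell, with medians of 0.19 and 0.15. The glutaredoxin Glrx rose by 0.88 ± 0.17 and 0.57 ± 0.17, glutathione reductase (Gsr) by 0.82 and 0.71, and Gclc, of glutathione synthesis, by 0.69 and 0.60.

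Among 13 measured sources of superoxide or peroxide, 1 rose and 4 fell in wildtype lungs, and 3 rose and 4 fell in deficient lungs, with medians of -0.19 and 0.0062. The NADPH oxidase Nox4 changed by -0.92 ± 0.12 and -0.83 ± 0.12 (adjusted p = 7.6e-05 and 0.000174), xanthine dehydrogenase (Xdh) by -0.67 and -0.34, and aldehyde oxidase (Aox1) by -0.56 and -0.67. Cyba, the membrane subunit shared by several NADPH oxidases, rose by 0.50 and 0.61. Of 11 genes that supply copper or selenium, 4 rose and 3 fell in wildtype lungs and 4 rose and 2 fell in deficient lungs. The copper chaperone Atox1 rose by 0.53 and 0.48, and Ccs, the chaperone that loads copper into Sod1, rose by 0.26 and 0.28. Selenop, the selenium carrier, changed by -0.41 and -0.32, and Scly, which recycles selenium, rose by 0.38 and 0.39.

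Of 9 genes of NRF2 control and targets outside these families, 2 rose and 2 fell in wildtype and 2 rose and 3 fell in deficient lungs, with medians of 0.031 and 0.033. Heme oxygenase (Hmox1) rose by 0.41 and 0.70, and the epoxide hydrolase Ephx1 changed by -0.72 and -0.82. Of 12 peroxisome genes, 1 rose and 2 fell in wildtype lungs, and 1 rose and 4 fell in deficient lungs, with medians of -0.069 and -0.14. The peroxisome assembly genes Pex13 and Pex3 also fell (-0.38 and -0.37 in wildtype, -0.38 and -0.41 in deficient lungs), while Pex5, the receptor that imports catalase, rose by 0.25 and 0.49.

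**Figure D5:**
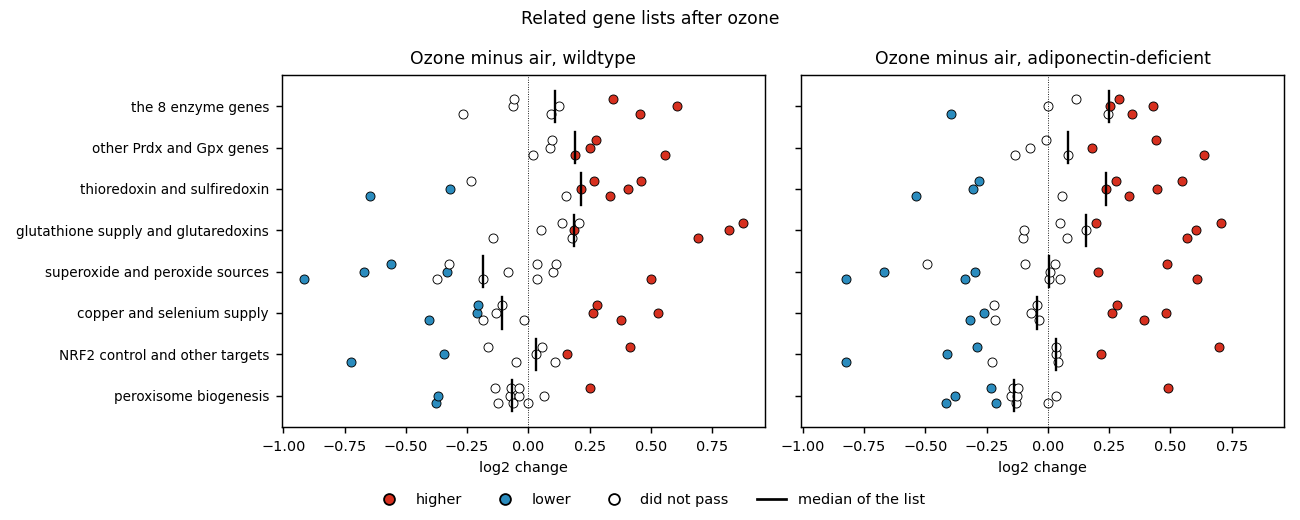
Log2 change after ozone (horizontal axis) of the 8 enzyme genes and of the measured genes of 7 companion lists, in wildtype lungs on the left and deficient lungs on the right, with filled points for genes that passed and a bar at the median of each list. Glrx, Gsr and Gclc stand at the right of the glutathione list, and Nox4 at the left of the sources.

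Cell type markers also moved with ozone. All 4 proliferation markers rose in both genotypes, with medians of 2.53 and 2.79, and their summed level was 7.94 to 8.37 on air arrays against 10.46 to 11.39 on ozone arrays. Of the 4 smooth muscle markers 2 rose in each genotype, and their summed level was 12.32 to 13.43 in air and 13.06 to 13.71 in ozone. The macrophage marker Siglecf fell in both genotypes (-1.03 and -0.78), and the other 4 of 5 macrophage markers did not pass. The median of the 5 was -0.10 in wildtype and 0.26 in deficient lungs. Among those that did not pass, Cd68 read 8.24 to 8.57 in deficient air and 8.65 to 9.67 in deficient ozone. The ciliated marker Dnah5, at a low level of 5.25 to 5.87, fell in both genotypes (-0.24 and -0.33). The other 2 of 3 ciliated markers did not pass, and the medians of the 3 were -0.060 and -0.13. Of 5 alveolar type 2 markers 2 rose in each genotype (Sftpd in both, Abca3 in wildtype and Sftpb in deficient lungs). Of 4 alveolar type 1 markers, Ager and Aqp5 rose in wildtype lungs, and Ager rose and Hopx fell in deficient lungs. Alas2 fell in wildtype lungs (-0.44), Cyp2f2 of club cells fell in deficient lungs (-0.22) and Cdh5 of endothelium rose there (0.56). No marker of neutrophils, fat, skeletal and heart muscle or squamous cells was called in either genotype. With ozone averaged over genotypes, 2 of 5 fat markers and 1 of 5 skeletal and heart muscle markers were called lower, against 22.7% of all genes. For the counts by genotype, the same shares of all genes, 36.7% and 30.3%, are the background. The part of these cells in the enzyme changes was not tested.

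The gene most like each member over the 16 arrays was Lrrc8a for Sod1 (Pearson r = 0.91), Svs4 for Sod2 (0.86), Gpbp1l1 for Sod3 (0.92) and Med6 for Cat (0.92). It was Anxa7 for Gpx1 (0.90), Rab25 for Gpx2 (0.90), Atp13a2 for Gpx3 (0.78) and Rbm4b for Gpx4 (0.81). These are descriptions over arrays that share the ozone shift. Among the members themselves, Sod2 and Gpx2 went together at r = 0.65 over all arrays. Their r was 0.62 after group means and the sex difference were taken off, whereas Sod1 and Gpx2 fell from 0.59 to 0.31. Sod2 and Gpx4 went from 0.08 to -0.54. Deficient air M2 was the highest array of its group for both Sod2 (10.87) and Gpx2 (9.80), and the correlations were not computed without it.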

How the data were processed

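Left lung RNA of 16 mice, called whole lung RNA in the sample titles, was measured on 16 Affymetrix arrays. The authors deposited RMA intensity values per probe set, per the submitters' processing notes. The table holds them on a linear scale (11.1 to 26975), and log2 was taken here. The RMA version and settings were not given in the sources used here. RMA scales all arrays to 1 distribution, so a shift shared by all genes cannot be seen. Probe sets were named through the platform annotation, with symbols updated through RefSeq gene IDs: of 22690 probe sets 64 were controls, 20380 had 1 gene, 691 several and 1555 none. The probe set with the highest mean stood for a gene (12393 genes, 4956 of them with more than 1 probe set), and all probe sets of the members were also tested.

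limma 3.58.1 in R 4.3.3 fitted the 4 groups and sex over all 16 arrays with empirical Bayes and Benjamini-Hochberg adjustment over all genes, over all 20380 probe sets with 1 gene, or, for Prdx1/Gm21399, over all 21071 annotated probe sets. The fit was tested on simulated data. The labels name 1 mouse per array, and p-values measure the spread between these mice. The members and all gene lists were chosen with earlier results of these data known. All members were named, at most 4 called genes per companion list with the largest change, and the gene with the highest Pearson r of each member. The averaged contrasts and the fit over all annotated probe sets were added after seeing the data. Alternatives were another normalization, a common median, probe set rules, filters, variance priors, array weights, designs, thresholds and arrays left out. The labels state no pairing by replicate number, and the main fit used none. Deviations of same-numbered arrays correlated above 0.1 in 2 of 24 pairs (-0.31 to 0.13), which cannot show that the mice were unpaired. Promoter matches were read from RefSeq windows of GRCm38.p6, with 8 of 10 members matched. Genome coordinates of genes are those of RefSeq on GRCm38.p6.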

Additional observations from a re-analysis of the deposited data

Results flagged for a closer look

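Of 76 sets of 4 values (each probe set in each group), 3 held an array far from the other 3 by Dixon's criterion, which chance alone meets in about 1 in 20 groups. In wildtype ozone, M2 had Sod3 at 10.88 by its main set, where the 3 other mice had 11.21 to 11.24. The same array had the neutrophil gene S100a8 at 13.68, and the part of neutrophil RNA in its Sod3 value was not tested. Gpx2 was 9.80 on deficient air M2, against 8.89 to 9.04 on the others, and that array had Acta1 at 13.08 and Krt4 at 13.03. The Prdx1/Gm21399 set 1436691_x_at was 12.78 on deficient ozone F2, against 12.62 to 12.65 on the others.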

How the results depend on the processing

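The count of members called after ozone in wildtype lungs, 3 as reported, was 0 in males alone, 1 at an adjusted p under 0.01 and 1 with a fold of at least 1.5. The count in deficient lungs, 5 as reported, was 3 after quantile normalization, 3 with the mean of all probe sets, 2 with the compared groups alone, 0 in males alone, 2 in females alone, 1 at an adjusted p under 0.01, 0 with a fold of at least 1.5, 3 without wildtype air F1, deficient air M2 and deficient air F2 (the arrays with other-tissue markers), 2 when deficient ozone F2 was also left out, and 2 to 5 with each array left out in turn. Without those 3 arrays the deficient calls were Sod2, Gpx1 and Gpx2, of which Gpx2 was not among the 5 as reported. Averaged over genotypes, 5 as reported became 3 with the mean of all probe sets, 1 in males alone and 0 with a fold of at least 1.5. For sex, 0 as reported became 1 (Gpx1) after quantile normalization, over all probe sets, with a trend and robust prior and without those 3 arrays, and 0 to 1 with each array left out. The Sod1 change turned to -0.049 in wildtype lungs and -0.020 on average with the mean of all probe sets, through its falling set. With a replicate block the deficient Gpx1 change of 0.25 lost its call (adjusted p = 0.0532), the wildtype change of 1436691_x_at of Prdx1/Gm21399 did too (adjusted p = 0.0539), and no other member call changed. With a common median 62.8% of wildtype ozone calls over all genes were higher, against 53.5%, and for sex 35.04% against 45.1%. Of the wildtype calls, Gpx2 kept its call under 31 of 33 settings, Gpx1 under 30 and Sod1 under 24. Of the deficient calls, Sod2 kept it under 30, Sod3 under 28, Sod1 under 19, Gpx1 under 16 and Cat under 14. For ozone changes within a genotype that did not pass, the 95% interval was as wide as -0.11 to 0.60 (deficient Gpx2). It was as narrow as -0.11 to 0.11 (deficient Gpx4), with 4 arrays per group. Intervals of the difference between the ozone changes of the genotypes could be wider, as for Gpx2 (-0.86 to 0.15).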
